A study of Mus musculus with 98 samples.

Results

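The end structures described here are 3' overhangs of 10 to 19 nt found well inside DNA ends made by the RAG recombinase. They were chosen by measured values. In the 11 tables of RAG breaks, the structures taken had an overhang from 10 to 19 and a 5'-ending strand that stopped at position 22 or more. The lowest position of either strand in these tables was 2, so position 22 lies 20 nt inside it. The rule took 474 of 4493 distinct structures at the RAG breaks, 201 of 2039 at Jk1 and 273 of 2454 at the recombination substrate. All tables of the series together held 8441 structures. The length of the overhang and the lower bound on position were fixed by that choice and are not results.

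The RAG recombinase cuts DNA beside antigen receptor gene segments and leaves a hairpin on the coding end and a blunt signal end. The coding hairpin must be opened, and the ends are then joined by non-homologous end joining, whose ligase is DNA ligase IV. Without that ligase the ends are left unjoined and exposed to nucleases. Resection is the loss of the 5'-ending strand, which leaves the other strand as a 3' overhang. H2AX is a histone variant that is phosphorylated around breaks, and 53BP1 is a chromatin-binding protein recruited there. Both are known to limit resection of broken ends in G1 lymphocytes.

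The assay, hairpin capture of DNA end structures (HCoDES), reads both strands of an end. A ligase for single-stranded DNA closes the end into a hairpin, bisulfite keeps the hairpin from blocking PCR, and paired reads show where each strand stopped. The samples came from Abelson-transformed pre-B cells of the mouse, held in G1, and every line with a RAG table lacked ligase IV. H2AX-/- lines 5 and 8 also lacked H2AX, 53BP1-/- lines B and C also lacked 53BP1, and Lig4-/- lines A and B lacked ligase IV alone. At Jk1, a joining segment of the immunoglobulin kappa locus, line C had no table used here, which leaves 5 tables there and 6 at the substrate.

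The lines were not handled alike in every respect that the labels record. H2AX-/- line 8 was sequenced in run 2, 53BP1-/- line C in run 6 and the other 4 lines in run 4. A time of 48 h stands in the titles of H2AX-/- line 8, 53BP1-/- line B and both Lig4-/- lines, and no time in those of H2AX-/- line 5 and 53BP1-/- line C. The unexplained tag shNT stands in the titles of 53BP1-/- line C and Lig4-/- line B. In 53BP1-/- line C, 1 of 3 substrate libraries has a title that also names H2AX-/- line 5, and its reads had been mixed with those of another PCR. Run, time and tag cannot be told apart from the line. Each table pooled 3 libraries, so the cell line is the replicate and no spread between libraries is known. Nothing in the labels says whether the libraries of a line came from separate cultures.

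The RAG tables held 72923 to 337917 reads. Shares are percent of all reads of a table. Their exact Clopper-Pearson 95% intervals are given in brackets, and because the reads are PCR copies that carry no molecular identifier, these intervals cover counting error only. A structure that a table does not list is taken as 0, which in the table of 53BP1-/- line C, counting 3 reads, allows a share of up to 0.00236%; the other tables list no structure below a minimum of 2 reads and give no such limit. That of line C lists structures of 1 read as well. Many of the structures were rare: those with 10 reads or fewer numbered 25 of 78 and 14 of 38 in H2AX-/- lines 5 and 8 at Jk1, 22 of 71 in 53BP1-/- line B, and 18 of 37 and 22 of 35 in lines A and B of Lig4-/- cells. At the substrate they numbered 31 of 76 and 5 of 23 in H2AX-/- lines 5 and 8, 49 of 90 and 39 of 50 in 53BP1-/- lines B and C, and 50 of 92 and 38 of 56 in the Lig4-/- lines.

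At Jk1 the 10 to 19 nt overhangs took a larger share of reads in every line that lacked H2AX or 53BP1 than in either Lig4-/- line. They held 9.10% (8.97 to 9.24) and 3.05% (2.97 to 3.14) of reads in H2AX-/- lines 5 and 8. The share was 4.14% (4.07 to 4.22) in 53BP1-/- line B, against 1.02% (0.985 to 1.06) and 1.74% (1.69 to 1.78) in lines A and B of Lig4-/- cells. H2AX-/- line 5 stood highest, and its distance from line 8 of the same genotype, 6.05 percentage points, exceeded the smallest gap to a Lig4-/- line, 1.32 points. The mean was 6.08% ± 4.28 in H2AX-/- cells and 1.38% ± 0.507 in Lig4-/- cells (SD, n = 2 lines each), a difference of 4.70 points that was 1.67 points without H2AX-/- line 5. An exact permutation test of the line values, two-sided, gave p = 0.333 for H2AX-/- and p = 0.333 for 53BP1-/- cells, the smallest p that these numbers of lines allow. Over the 6 comparisons of share, the Benjamini-Hochberg adjusted value was 0.4 for both.

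At the substrate the same class separated 53BP1-/- from Lig4-/- lines and did not separate H2AX-/- from Lig4-/- lines. The share was 14.5% (14.2 to 14.7) and 3.57% (3.44 to 3.71) in H2AX-/- lines 5 and 8. In 53BP1-/- lines B and C it was 7.22% (7.13 to 7.31) and 15.1% (14.9 to 15.3), and in lines A and B of Lig4-/- cells 3.87% (3.80 to 3.93) and 2.49% (2.41 to 2.58). H2AX-/- line 8 thus lay between the Lig4-/- lines, while both 53BP1-/- lines lay above them. The 53BP1-/- mean of 11.2% ± 5.56 exceeded the Lig4-/- mean of 3.18% ± 0.974 by 7.97 points (SD, n = 2 lines each; exact permutation p = 0.333, the smallest possible, adjusted 0.4), and by 4.04 points without line C, the line with the mixed library. For H2AX-/- cells the mean was 9.03% ± 7.72 and the difference 5.85 points (exact permutation p = 0.667, n = 2 lines each, adjusted 0.667). That difference was 0.391 points without H2AX-/- line 5, and the lines no longer overlapped without H2AX-/- line 8 (11.3 points) or without Lig4-/- line A (6.54 points). All lines with either loss, set together against the Lig4-/- lines, gave exact permutation p = 0.2 at each site, with 0.1 the smallest possible at Jk1 and 0.0667 at the substrate.

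**Figure D1:**
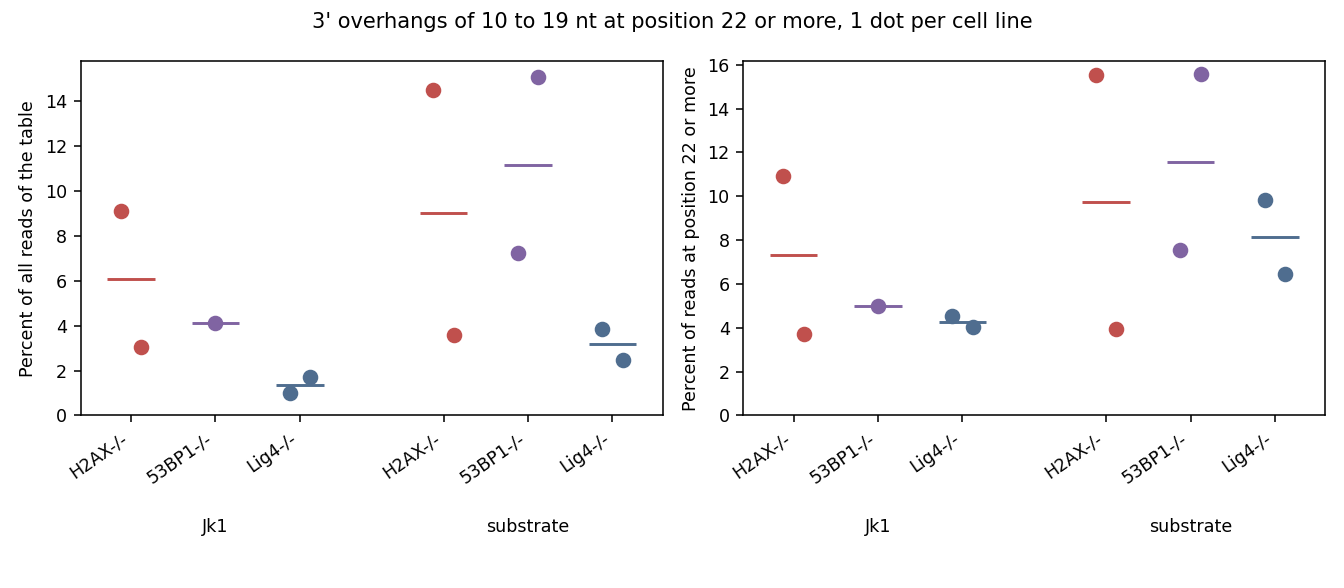
Share of reads in 3' overhangs of 10 to 19 nt at position 22 or more, in percent of all reads of a table (left panel) and in percent of reads whose 5'-ending strand stopped at position 22 or more (right panel). Each dot is 1 cell line, coloured by genotype, and bars are the means of the lines. Of all reads, the Jk1 shares of H2AX-/- and 53BP1-/- lines (3.05% to 9.10%) lie above those of the Lig4-/- lines (1.02% and 1.74%). Of reads at position 22 or more, the genotypes overlap except for the lone 53BP1-/- line at Jk1.

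The separation seen over all reads went with the larger share of ends of any kind that lay this far inside. Reads at position 22 or more made up 83.4% and 81.6% in H2AX-/- lines 5 and 8 at Jk1 and 83.3% in 53BP1-/- line B, against 22.5% and 43.2% in lines A and B of Lig4-/- cells. At the substrate they made up 93.1% and 90.4% in H2AX-/- lines 5 and 8, 95.6% and 96.9% in 53BP1-/- lines B and C, and 39.4% and 38.6% in lines A and B of Lig4-/- cells. Among those reads alone the 10 to 19 nt overhangs held 10.9% and 3.74% in H2AX-/- lines 5 and 8 at Jk1 and 4.98% in 53BP1-/- line B, against 4.54% and 4.02% in the Lig4-/- lines. H2AX-/- line 8 now stood below both Lig4-/- lines (exact permutation p = 1 for H2AX-/- cells, n = 2 lines each), and the difference of 3.05 points was -0.540 points without line 5 and 6.64 points without line 8. Only the 53BP1-/- line remained apart, by 0.440 points from the nearer Lig4-/- line (exact permutation p = 0.667, n = 1 and 2 lines, adjusted 1).

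At the substrate the share among such reads was 15.6% and 3.95% in H2AX-/- lines 5 and 8, 7.55% and 15.6% in 53BP1-/- lines B and C, and 9.82% and 6.45% in lines A and B of Lig4-/- cells. Lines of all 3 genotypes overlapped there. Exact permutation tests gave p = 1 for H2AX-/- and p = 0.667 for 53BP1-/- cells (n = 2 lines in each group, smallest possible 0.333, adjusted 1).

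Set only against other 3' overhangs at position 22 or more, the class held a larger part in the mutant lines at Jk1. It was 27.1% and 11.5% of 3' overhang reads in H2AX-/- lines 5 and 8 and 18.97% in 53BP1-/- line B, against 8.91% and 7.37% in the Lig4-/- lines. At the substrate the values were 26.1% and 8.84% in H2AX-/- lines 5 and 8, 24.1% and 29.0% in 53BP1-/- lines B and C, and 17.4% and 12.6% in lines A and B of Lig4-/- cells. The lines did not overlap for H2AX-/- or 53BP1-/- at Jk1 nor for 53BP1-/- at the substrate (exact permutation p = 0.333 in each, n = 1 or 2 lines against 2, adjusted over 6 comparisons 0.48). H2AX-/- cells overlapped with Lig4-/- cells at the substrate (exact permutation p = 1, n = 2 lines each).

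The classes next to it in length did not all run the same way. Shorter 3' overhangs of 1 to 9 nt at position 22 or more held 18.9% and 18.1% of all reads in H2AX-/- lines 5 and 8 at Jk1 and 7.71% in 53BP1-/- line B, against 9.38% and 20.1% in lines A and B of Lig4-/- cells. Longer ones, of 20 nt or more, held 5.57% and 5.45% in H2AX-/- lines, 9.98% in 53BP1-/- line B and 1.05% and 1.75% in Lig4-/- lines. In 53BP1-/- line B at Jk1 the longer class thus exceeded the 10 to 19 nt class, which was at 4.14%. At the substrate the shorter class held 30.9% and 29.6% in H2AX-/- lines 5 and 8, 11.9% and 31.0% in 53BP1-/- lines B and C, and 12.8% and 14.6% in the Lig4-/- lines. The longer class held 10.2% and 7.24% in H2AX-/- lines, 10.8% and 5.88% in 53BP1-/- lines and 5.59% and 2.66% in Lig4-/- lines, so that every mutant line exceeded both Lig4-/- lines in the longer class.

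**Figure D2:**
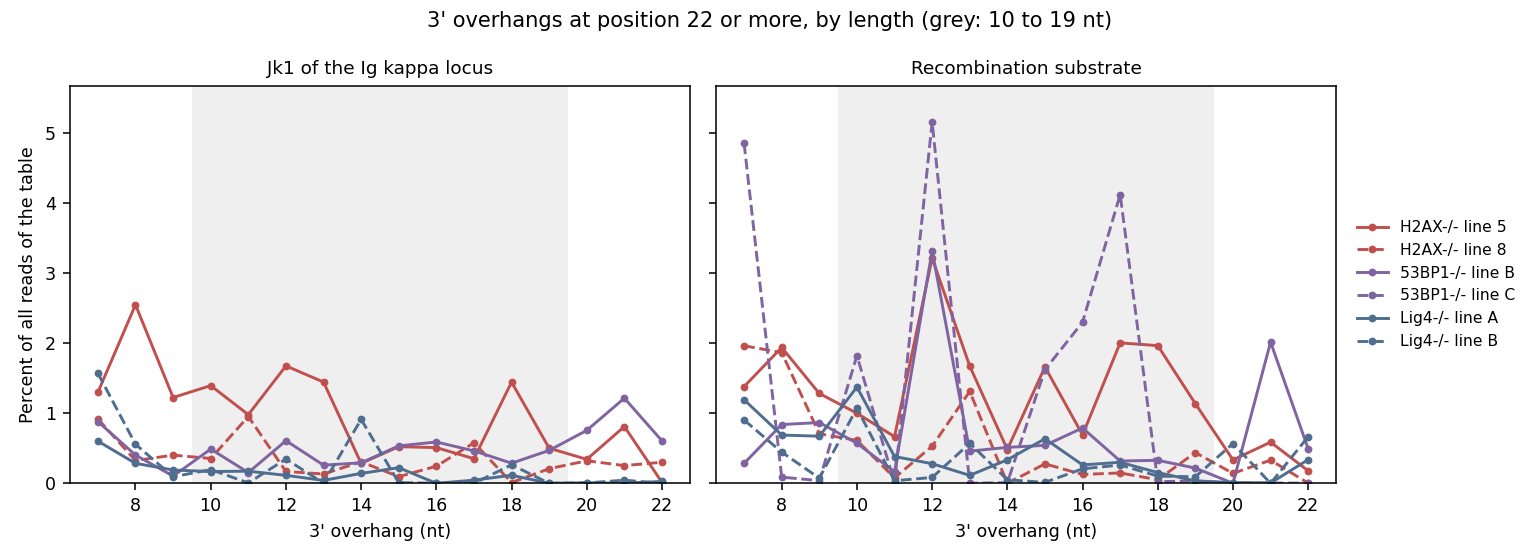
Share of all reads of a table (percent) in 3' overhangs of each length from 7 to 22 nt at position 22 or more, with 1 line per cell line. The grey band marks 10 to 19 nt, and solid and dashed lines tell apart the cell lines of a genotype. At the substrate the 12-nt length stands out in H2AX-/- line 5 (3.21%) and in 53BP1-/- lines B (3.32%) and C (5.15%), against 0.280% and 0.0835% in lines A and B of Lig4-/- cells. In 53BP1-/- line C most of it is the structure at position 181, with 5.05%.

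Within the class at Jk1 a single length held most of the reads only in Lig4-/- line B, where 14-nt overhangs held 0.911% of the 1.74%. Other lines were uneven as well. In H2AX-/- line 8, 11-nt and 17-nt overhangs held 0.953% and 0.578% of the 3.05%, and Lig4-/- line A listed none of 16 or 19 nt. The mean overhang at Jk1 was 13.7 and 13.6 nt in H2AX-/- lines 5 and 8 and 14.7 nt in 53BP1-/- line B, against 13.4 and 13.8 nt in lines A and B of Lig4-/- cells. At the substrate it was 14.6 and 13.5 nt in H2AX-/- lines 5 and 8, 13.4 and 14.1 nt in 53BP1-/- lines B and C, and 12.8 and 12.8 nt in Lig4-/- lines. The mutant lines there had means above both Lig4-/- lines, by 0.544 nt at the least. Without the most abundant member of each table the lines overlapped, and the differences were -0.0518 nt for H2AX-/- and 0.00767 nt for 53BP1-/- cells. With each structure counted once, the H2AX-/- lines overlapped the Lig4-/- lines as well (-0.0362 nt).

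Overhangs of 12 nt held 3.21% and 0.529% of substrate reads in H2AX-/- lines 5 and 8, 3.32% and 5.15% in 53BP1-/- lines B and C, and 0.280% and 0.0835% in lines A and B of Lig4-/- cells. All 4 mutant lines were above both Lig4-/- lines, at a length picked after the values were seen. Different structures led this share. The one at 181 held 5.05% in 53BP1-/- line C and 0.740% in 53BP1-/- line B. The one at 184 held 0.474% in H2AX-/- line 8, and the one at 169, listed in no other line, held 1.67% in H2AX-/- line 5. The 17-nt length was high in 53BP1-/- line C, at 4.12%, and in H2AX-/- line 5, at 2.00%, while H2AX-/- line 8, 53BP1-/- line B and the Lig4-/- lines held between 0.148% and 0.318%. In 53BP1-/- line C, 17-nt structures at 128 and 131, listed in no other line, held 2.30% and 1.80% of reads. Of the Lig4-/- lines, the highest length at the substrate was 10 nt in both, with 1.37% in line A and 1.07% in line B. Just outside the length bounds, 9-nt overhangs at the substrate held 1.28% and 0.708% in H2AX-/- lines 5 and 8, 0.867% and 0.0377% in 53BP1-/- lines B and C, and 0.672% and 0.0734% in lines A and B of Lig4-/- cells.

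How far inside the overhangs lay differed between the genotypes at the substrate. The median position of their 5'-ending strand, over reads, was 140 and 174 in H2AX-/- lines 5 and 8 and 170 and 131 in 53BP1-/- lines B and C, against 37 and 47 in lines A and B of Lig4-/- cells. The lowest mutant line lay 84 positions above the higher Lig4-/- line. Other ends at position 22 or more in the same tables had medians of 136 and 157 in H2AX-/- lines 5 and 8, 152 and 142 in 53BP1-/- lines B and C, and 93 and 89 in lines A and B of Lig4-/- cells. In Lig4-/- lines the 10 to 19 nt overhangs lay nearer the lowest position than all other far ends pooled, and 3' overhangs of 1 to 9 nt lay about as near, with medians of 42 and 47 in lines A and B. In mutant lines the 1 to 9 nt overhangs had medians of 126 and 155 (H2AX-/- lines 5 and 8) and 143 and 129 (53BP1-/- lines B and C). The difference in position between genotypes was therefore not particular to the 10 to 19 nt class.

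Divided at positions 62 and 122, bounds chosen after the values were seen, the substrate overhangs fell mostly into opposite bins. Positions 122 or more held 55.01% and 72.4% of their reads in H2AX-/- lines 5 and 8, 88.4% and 88.6% in 53BP1-/- lines B and C, and 0.235% and 3.54% in lines A and B of Lig4-/- cells. Positions 22 to 61 held 28.1% and 7.72% in H2AX-/- lines 5 and 8, 1.59% in 53BP1-/- line B, none listed in 53BP1-/- line C, and 93.1% and 80.7% in the Lig4-/- lines. As shares of all reads, the overhangs at 122 or more amounted to 7.97% and 2.59% in H2AX-/- lines, 6.38% and 13.4% in 53BP1-/- lines and 0.00907% and 0.0882% in Lig4-/- lines. At positions 22 to 61 they amounted to 4.07% and 0.276% in H2AX-/- lines 5 and 8, 0.115% in 53BP1-/- line B, none listed in 53BP1-/- line C, and 3.60% and 2.01% in lines A and B of Lig4-/- cells. H2AX-/- line 5 thus held at least as much at positions 22 to 61 as either Lig4-/- line, and more beyond 122.

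At Jk1 the positions weighted by reads did not follow genotype. The medians over reads were 103 and 140 in H2AX-/- lines 5 and 8 and 130 in 53BP1-/- line B, against 89 and 149 in lines A and B of Lig4-/- cells. With each structure counted once the lines did not overlap: the medians were 62.5 and 80 in H2AX-/- lines 5 and 8 and 107 in 53BP1-/- line B, against 47 and 53 in lines A and B of Lig4-/- cells (exact permutation p = 0.333 for each loss, n = 1 or 2 lines against 2, adjusted 0.333). Positions 122 or more held 36.1% and 66.8% of the overhang reads in H2AX-/- lines 5 and 8 and 67.3% in 53BP1-/- line B, against 42.9% and 81.6% in lines A and B of Lig4-/- cells. The highest share was in Lig4-/- line B, where the 3 leading structures, at positions 164, 148 and 156, held 33.4%, 18.8% and 15.2% of the overhang reads.

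**Figure D3:**
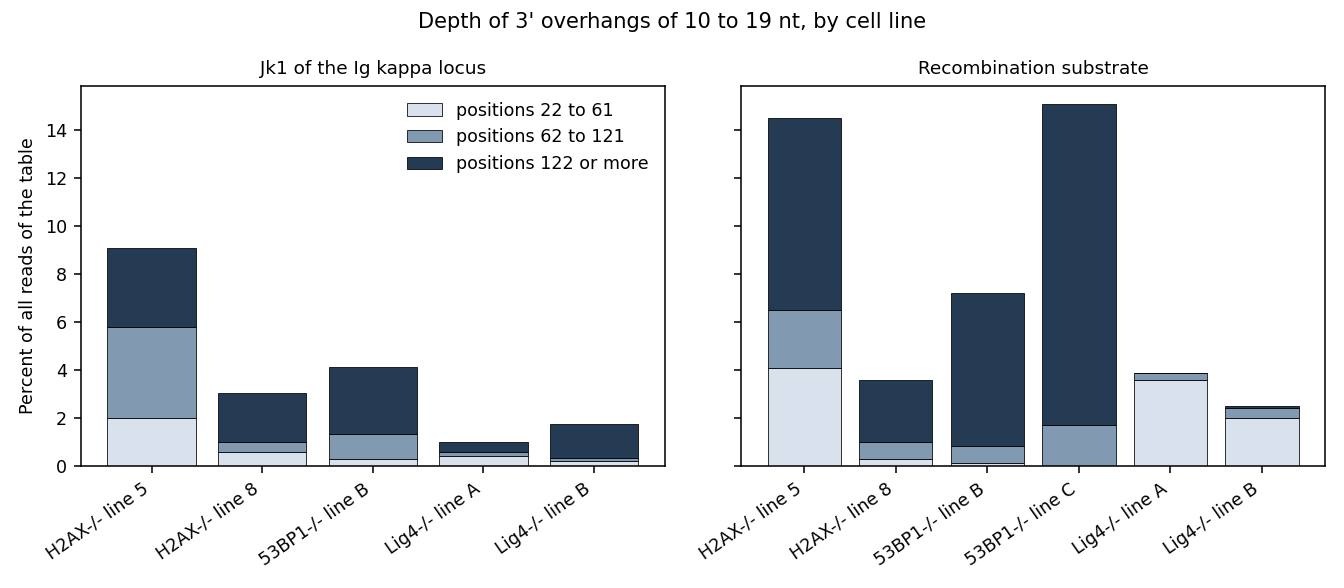
Share of all reads of a table (percent) in 3' overhangs of 10 to 19 nt, divided by the position of the 5'-ending strand, with 1 stacked bar per cell line. At the substrate, positions 122 or more (dark) hold 2.59% to 13.4% of reads in H2AX-/- and 53BP1-/- lines and 0.00907% and 0.0882% in Lig4-/- lines.

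The Lig4-/- overhangs at the substrate gathered at few places. Their leading structure in both lines had its 5'-ending strand at position 47 and a 10-nt overhang, so that the 3'-ending strand stopped at 37. It held 0.401% and 0.110% of reads in H2AX-/- lines 5 and 8, 0.0965% in 53BP1-/- line B, none listed in 53BP1-/- line C, and 1.05% (1.02 to 1.09) and 1.04% (0.981 to 1.09) in lines A and B of Lig4-/- cells. All mutant lines were below both Lig4-/- lines, and among the overhangs whose lines did not overlap this was the one with the largest decrease in both substrate comparisons, -0.789 points for H2AX-/- and -0.997 points for 53BP1-/- cells. It was also the only one listed in 5 of the 6 substrate tables.

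Positions 33 to 37 and 47 to 49, windows chosen after the values were seen, together took in most of the class in Lig4-/- cells. Structures at 33 to 37 held 12.1% of overhang reads in H2AX-/- line 5 and 0.0369% in 53BP1-/- line B, and none were listed in H2AX-/- line 8 or 53BP1-/- line C, against 49.8% and 23.4% in lines A and B of Lig4-/- cells. Of all reads these structures held 1.75% in H2AX-/- line 5 and 0.00266% in 53BP1-/- line B, against 1.93% and 0.582% in the Lig4-/- lines. Those at 47 to 49 held 6.20% and 3.07% in H2AX-/- lines 5 and 8, 1.45% in 53BP1-/- line B and none in 53BP1-/- line C, against 29.5% and 48.6% in the Lig4-/- lines. Ends outside the class also lay in both windows, in larger amounts than the class in both Lig4-/- lines. At 33 to 37 they held 2.73% and 2.92% of all reads in Lig4-/- lines A and B. The shares were 1.43% and 0.7899% in H2AX-/- lines 5 and 8 and 0.376% in 53BP1-/- line B. At 47 to 49 they held 1.66% and 2.27% in the Lig4-/- lines, 3.39% and 0.886% in H2AX-/- lines and 1.098% in 53BP1-/- line B. In 53BP1-/- line C none were listed in either window. Within the class, the 16-nt and 17-nt overhangs at position 36 had the next largest decreases in both comparisons. At 16 nt the share was 0.0275% in H2AX-/- line 5, and the structure was not listed in the other mutant lines, against 0.171% and 0.143% in the Lig4-/- lines. The 15-nt overhang at 36 was instead highest in H2AX-/- line 5, at 0.677%, against 0.184% and 0.00156% in the Lig4-/- lines. It held 0.000592% in 53BP1-/- line B and was not listed in H2AX-/- line 8 or 53BP1-/- line C.

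**Figure D4:**
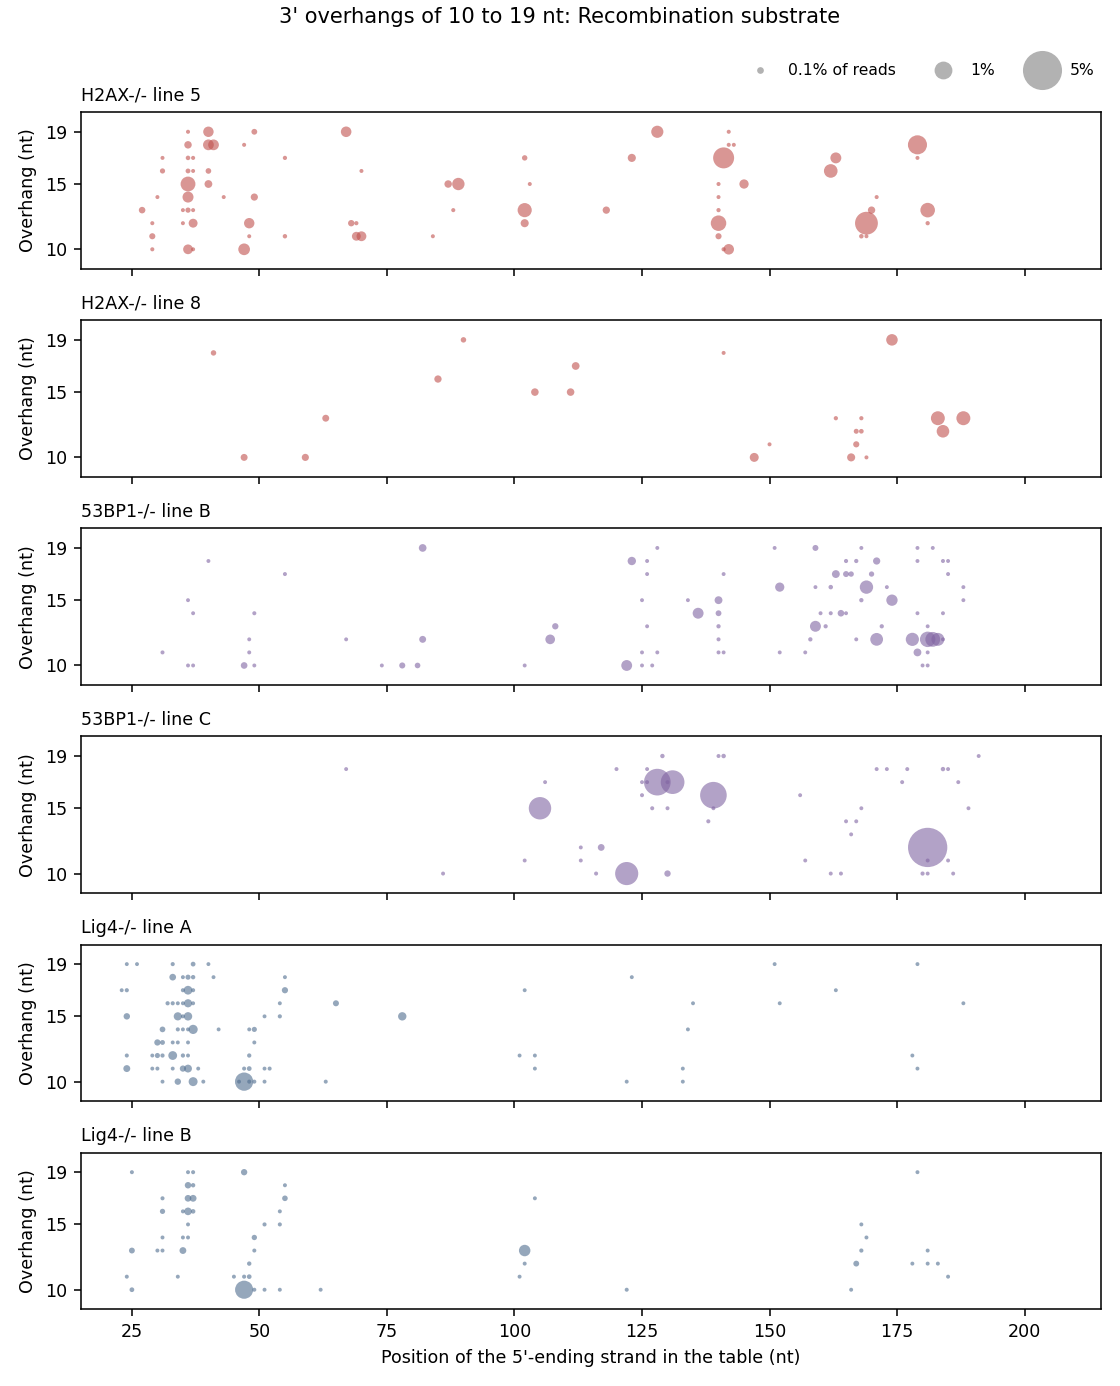
Each 3' overhang of 10 to 19 nt at the substrate by the position of its 5'-ending strand (x axis, nt in the table) and its length (y axis, nt), with 1 panel per cell line and dot area growing with the share of reads. Lig4-/- dots crowd at positions 33 to 37 and 47 to 49, and the largest dot, a 12-nt overhang at position 181, is in 53BP1-/- line C at 5.05%.

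The structures that led in mutant lines at the substrate lay farther inside, and most were listed in few tables. In 53BP1-/- cells the leading structure had its 5'-ending strand at 181 and a 12-nt overhang. It held 0.0105% in H2AX-/- line 5 and was not listed in H2AX-/- line 8, and it held 0.740% (0.711 to 0.770) and 5.05% (4.93 to 5.17) in 53BP1-/- lines B and C. In Lig4-/- line A it was not listed, and in line B it held 0.00156%. A 10-nt overhang at 122 had the next largest increase in 53BP1-/- cells, at 0.341% and 1.72% in lines B and C, against 0.000907% and 0.00312% in lines A and B of Lig4-/- cells. Both increases were larger in line C than in line B. The rest of the leaders of line C, a 17-nt overhang at 128 with 2.30% and a 16-nt overhang at 139 with 2.29%, were listed in no other table. Nor were the other leaders of line B, at 182 with 12 nt (0.676%) and at 169 with 16 nt (0.539%).

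The H2AX-/- lines shared no leader at the substrate. Line 5 was led by a 12-nt overhang at 169 with 1.67% (1.58 to 1.77) and a 17-nt overhang at 141 with 1.41%, and line 8 by 13-nt overhangs at 188 with 0.595% (0.541 to 0.654) and at 183 with 0.590%. Line 8 did not list the leaders of line 5, nor line 5 those of line 8. An 18-nt overhang at 41 was the only structure of the class higher in both H2AX-/- lines than in both Lig4-/- lines. It held 0.333% and 0.0480% in H2AX-/- lines 5 and 8 and 0.000605% in Lig4-/- line A, with none listed in Lig4-/- line B. Most reads of the class came from few structures in some tables: 3 structures held at least 50% of the class in 53BP1-/- line C and 2 in Lig4-/- line B, against 8 and 4 in H2AX-/- lines 5 and 8.

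At Jk1 each table was led by its own structures. H2AX-/- line 5 was led by a 12-nt overhang at 158, with 0.708% (0.668 to 0.749), and H2AX-/- line 8 by an 11-nt overhang at 163, with 0.740% (0.698 to 0.784). In 53BP1-/- line B the leaders were a 12-nt and a 13-nt overhang at 157, with 0.248% and 0.226%. Lig4-/- line A was led by a 15-nt overhang at 138, with 0.131% (0.119 to 0.144), and Lig4-/- line B by a 14-nt overhang at 164, with 0.580% (0.553 to 0.607). The highest share that any of these held in another Jk1 table was 0.000984%. The structure at 164 made up 33.4% of the class in Lig4-/- line B, and 2 structures made up at least 50% of it there, against 13 in H2AX-/- line 5 and 4 in line 8.

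A few Jk1 structures recurred. A 12-nt overhang at 129 was listed in 4 tables, with 0.332% in H2AX-/- line 5, 0.141% in 53BP1-/- line B, and 0.107% and 0.000984% in lines A and B of Lig4-/- cells. The genotypes overlapped for it. A 15-nt overhang at 60 was found in all 3 mutant lines, with 0.0960% and 0.00317% in H2AX-/- lines 5 and 8 and 0.0550% in 53BP1-/- line B, and was listed in neither Lig4-/- table. In the opposite direction, a 10-nt overhang at 33 held 0.00117% in H2AX-/- line 5, none in line 8 and 0.000775% in 53BP1-/- line B, against 0.0476% and 0.0879% in lines A and B of Lig4-/- cells.

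**Figure D5:**
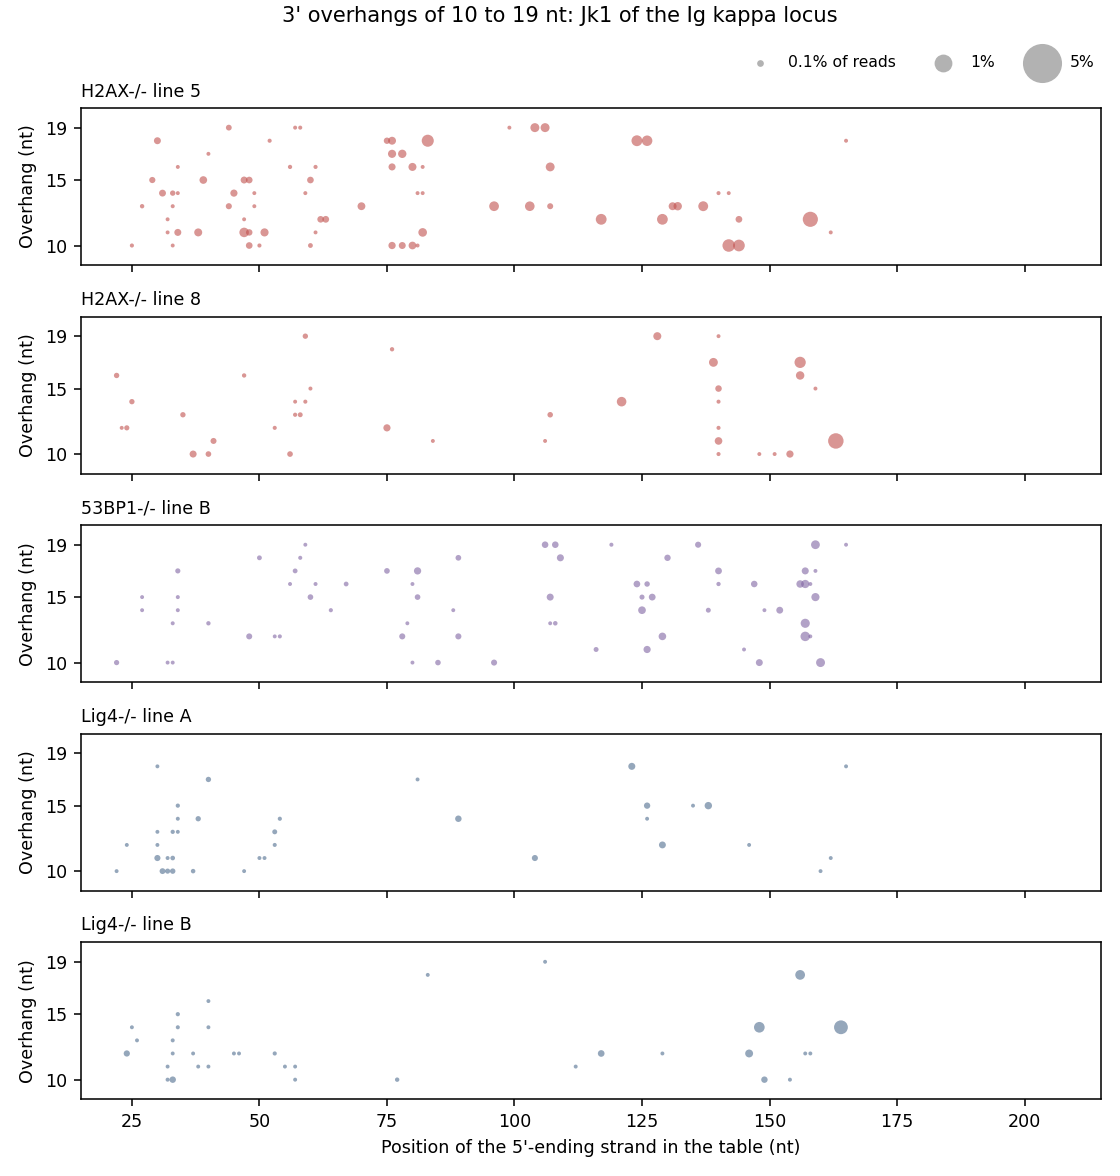
Each 3' overhang of 10 to 19 nt at Jk1 by the position of its 5'-ending strand (x axis, nt in the table) and its length (y axis, nt), with 1 panel per cell line and dot area growing with the share of reads. The largest dots are an 11-nt overhang at 163 in H2AX-/- line 8 (0.740%) and a 12-nt overhang at 158 in H2AX-/- line 5 (0.708%), and no structure is in all 5 panels.

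Counted structure by structure, the class gave few members that separated the genotypes, except for the lone 53BP1-/- line at Jk1. Their share was mostly at or below that of all structures. At Jk1, 5 of 153 overhangs listed in the H2AX-/- or Lig4-/- tables were higher in both H2AX-/- lines than in both Lig4-/- lines, where 5.43% of all structures were, and 5 were lower, where 14.7% were. For the lone 53BP1-/- line 64 of 120 were higher, where 47.3% of all structures were, and 8 were lower, where 18.6% were. With 1 line, a structure listed in that line alone counts as higher. In the loss of either protein 2 of 201 were higher, against 2.31% of all structures, and 4 were lower, against 9.91%.

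At the substrate, 1 of 182 overhangs was higher in H2AX-/- lines, against 5.45% of all structures, and 24 were lower, against 18.3%. In 53BP1-/- lines 12 of 220 were higher, against 4.53%, and 29 were lower, against 18.2%. Of 273 overhangs none was higher in all 4 mutant lines than in both Lig4-/- lines, against 0.285% of all structures, and 22 were lower, against 12.1%. A structure listed in 1 table cannot be higher in both lines of a genotype or lower than both Lig4-/- lines. Of the overhangs, 80.1% at Jk1 and 69.96% at the substrate were listed in 1 table, which bounded these counts beforehand. No result about the class is drawn from them.

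That few structures recurred from table to table was plain at both sites. At Jk1, 161 of 201 overhangs (80.1%) were listed in 1 table, as were 56.3% of all structures, and none was listed in all 5. At the substrate, 191 of 273 (69.96%) were listed in 1 table, as were 59.7% of all structures, and none was listed in all 6. Lig4-/- lines A and B shared 31 overhangs at the substrate, which were 33.7% of those of line A and 55.4% of those of line B. The H2AX-/- lines shared 2, which were 2.63% of those of line 5 and 8.70% of those of line 8, and the 53BP1-/- lines shared 13, which were 14.4% of those of line B and 26.0% of those of line C. Sharing between genotypes was often larger: H2AX-/- line 5 shared 21 with 53BP1-/- line B, 21 with Lig4-/- line A and 20 with Lig4-/- line B, which were 27.6%, 27.6% and 26.3% of its own overhangs and 23.3%, 22.8% and 35.7% of those of the other line. At Jk1 the Lig4-/- lines shared 10 with each other, and each of them shared 10 with H2AX-/- line 5 and 10 with 53BP1-/- line B. Those 10 were 27.0% of the overhangs of Lig4-/- line A, 28.6% of those of Lig4-/- line B, 12.8% of those of H2AX-/- line 5 and 14.1% of those of 53BP1-/- line B. Total reads differed between the tables, and the part of depth in these overlaps was not tested.

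The number of distinct overhangs followed the share at Jk1 and not at the substrate. At Jk1 it was 78 and 38 in H2AX-/- lines 5 and 8 and 71 in 53BP1-/- line B, against 37 and 35 in lines A and B of Lig4-/- cells (exact permutation p = 0.333 for each genotype, n = 1 or 2 lines against 2, adjusted 0.667). The smallest gap between H2AX-/- and Lig4-/- lines was 1 structure. At the substrate the number was 76 and 23 in H2AX-/- lines 5 and 8, 90 and 50 in 53BP1-/- lines B and C, and 92 and 56 in lines A and B of Lig4-/- cells, and the genotypes overlapped (exact permutation p = 0.667 for both, n = 2 lines each). Total reads there were 76325 and 72923 in H2AX-/- lines 5 and 8, against 330683 and 128122 in Lig4-/- lines A and B. Only for 53BP1-/- line C were structures of 1 read listed. The part of depth in these numbers was not tested. As a share of distinct structures at position 22 or more, the overhangs at the substrate made up 16.7% and 4.47% in H2AX-/- lines, 10.7% and 10.96% in 53BP1-/- lines, and 14.7% and 12.4% in Lig4-/- lines. Counted in this way the 53BP1-/- lines were below the Lig4-/- lines, while over all reads they were above.

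Overhangs of the same length and depth but with the 5'-ending strand longer give a comparison by polarity, added after the values were seen. Such 5' overhangs of 10 to 19 nt held 2.98% and 8.48% of reads in H2AX-/- lines 5 and 8 at Jk1 and 13.1% in 53BP1-/- line B, against 1.06% and 2.16% in lines A and B of Lig4-/- cells. At the substrate they held 1.59% and 1.90% in H2AX-/- lines, 12.4% and 7.59% in 53BP1-/- lines B and C, and 0.488% and 1.41% in Lig4-/- lines. These 5' overhangs were higher in every mutant line at both sites (exact permutation p = 0.333 in each comparison, n = 1 or 2 lines against 2, adjusted 0.333).

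The 3' form made up 75.3% and 26.5% of the reads of both forms in H2AX-/- lines 5 and 8 at Jk1 and 24.1% in 53BP1-/- line B, against 49.1% and 44.5% in lines A and B of Lig4-/- cells. The H2AX-/- lines lay on either side of the Lig4-/- lines, and the 53BP1-/- line lay below them (exact permutation p = 0.333, n = 1 and 2 lines, adjusted 1). At the substrate the 3' form made up 90.1% and 65.3% in H2AX-/- lines 5 and 8, 36.8% and 66.5% in 53BP1-/- lines B and C, and 88.8% and 63.8% in lines A and B of Lig4-/- cells. The genotypes overlapped there (exact permutation p = 0.667 for both, n = 2 lines each).

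Of the 5 lines measured at both sites, all had a larger share of the class at the substrate than at Jk1. The difference of substrate minus Jk1 was 2.52 ± 1.98 percentage points (SD, n = 5 lines) and ran from 0.519 to 5.38 points. An exact test by sign flips, two-sided, gave p = 0.0625, the smallest that 5 lines allow. Among reads at position 22 or more the substrate was again higher in 5 of 5 lines, by 3.03 ± 2.01 points (SD, n = 5 lines, exact p = 0.0625). Of 4 measures compared between the sites in this way, these 2 had an adjusted value of 0.125, and for the mean overhang and the median position the exact p was 0.312 and 0.812. The amplified windows differ: the highest position of any structure was 208 to 209 at the substrate and 173 to 183 at Jk1. Within the class the highest position was 181 to 191 at the substrate and 163 to 165 at Jk1.

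The bound at position 22 fell just beyond a group of overhangs that Lig4-/- lines carried at the substrate. At position 18, outside the rule, 3' overhangs of 10 to 19 nt held 0.335% and 0.276% in H2AX-/- lines 5 and 8, 0.0444% and 0.108% in 53BP1-/- lines B and C, and 2.26% and 2.11% in lines A and B of Lig4-/- cells. Below position 22 such overhangs held 0.421% and 0.406% in H2AX-/- lines, 0.0840% and 0.134% in 53BP1-/- lines, and 2.97% and 2.61% in Lig4-/- lines. Just inside, at positions 22 and 23, only Lig4-/- line A listed such an overhang, at 0.000605%. With the bound at position 12 the substrate difference from Lig4-/- cells was 3.47 points for H2AX-/- and 5.29 points for 53BP1-/- cells, against a Lig4-/- mean of 5.97%. The lower 53BP1-/- line was then at 7.30% and the higher Lig4-/- line at 6.84%. At Jk1 the same overhangs below position 22 held 0.172% of reads or less in every line.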

How the data were processed

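Per the labels, genomic DNA of G1-arrested cells was ligated, bisulfite-treated, amplified and sequenced as read pairs on a MiSeq. The authors deposited 1 table per group with read counts per end structure, not normalised, beside a position and an overhang in nt. For the aligner, filters and genome build, the sources used here give no name. Positive overhangs were read as 3' overhangs from the KpnI control, whose main structure has an overhang of 4 nt, so that the other strand stops at position minus overhang. The 11 RAG tables came from 33 libraries. Another 2 tables of the series repeated others cell by cell and were not used.

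Shares, intervals and exact permutation tests of line values were computed in scipy 1.17.1, numpy 2.4.6 and pandas 2.3.3 under Python 3.11.15, with matplotlib 3.10.9 for figures. A structure was called where the lines of the genotypes did not overlap. Named structures were the 3 leading members of each table, up to 3 largest increases and decreases per comparison among called members, and members found in all tables of a site; other named structures were picked after their values were seen. Members and rules were chosen with earlier results of these data known. As a check of the computation only, counts were simulated from each of 11 tables with the share set beforehand. The mean of 20 draws recovered the set share within 0.0405 points. Alternatives changed the bounds on position and length, the read minimum, the weights, the denominator and the lines used.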

Additional observations from a re-analysis of the deposited data

Results flagged for a closer look

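Tables outside the RAG comparisons also held 3' overhangs of 10 to 19 nt, counted at any position because their break positions differ. In the zinc finger nuclease tables they held 1.13% of reads in 53BP1-/- line C and 2.47% in Lig4-/- line B. The Cas9 tables held 2.30% in Lig4-/- line A and 1.71% in Lig4-/- line B. In the table of the de novo PCR of H2AX-/- line 8 the share was 0.516%. All 5 exceeded the 0.102% (0.0909 to 0.114) of the KpnI control. These tables were set against the KpnI control only by their counting intervals, and the control, 1 library whose genotype the labels do not give, was measured without replicates.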

How the results depend on the processing

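Differences are mutant minus Lig4-/- in percentage points unless stated, and a call means that the lines did not overlap. For the share of reads, 63 of 77 settings other than leaving out 1 line at a time kept the direction and whether a call was made. These settings include run 4 alone and lines without shNT alone, which also leave out lines. They also include a minimum of 2 reads, which could change only comparisons with 53BP1-/- line C, as no other table lists fewer. With reads at position 22 or more as the denominator the call was lost for H2AX-/- (3.05) and either loss (2.27) at Jk1 and for 53BP1-/- at the substrate (3.43). With each structure counted once, the substrate difference was -0.956 for H2AX-/-, -0.398 for either loss and 0.160 for 53BP1-/-, none called. The H2AX-/- substrate difference became a call from position 42 (5.80), with overhangs of 10 to 14 nt (2.63), without the leading member (5.85) and in run 4 alone (11.3), and that of either loss likewise (7.65, 3.25, 6.12 and 7.67). Run 4 alone keeps only line 5 of the H2AX-/- lines, so 11.3 is the same comparison as leaving out H2AX-/- line 8. Neither difference was a call with overhangs of 15 to 19 nt (3.22 for H2AX-/- and 3.66 for either loss) or without the 3 leading members (4.65 and 4.33). Without 1 line, the share at Jk1 differed by 1.67 to 7.73 for H2AX-/-, 2.41 to 3.12 for 53BP1-/- and 2.22 to 5.25 for either loss, and at the substrate by 0.391 to 11.3 for H2AX-/-, 4.04 to 11.9 for 53BP1-/- and 5.24 to 9.08 for either loss. For H2AX-/- cells the low value is without line 5 and the high value without line 8, and for 53BP1-/- cells at the substrate they are without line C and without line B. For either loss at the substrate, the lines did not overlap without H2AX-/- line 8 (9.08) or Lig4-/- line A (7.60).

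Among reads at position 22 or more, H2AX-/- at Jk1 became a call with structures counted once (3.87) and in run 4 (6.64), which keeps only H2AX-/- line 5. At the substrate these settings gave -2.94 and 7.42 (a call, with line 5 only) for H2AX-/-, and -2.73 (a call) and -0.585 (with line B only) for 53BP1-/-. Without 1 line the difference at Jk1 ran from -0.540 to 6.64 for H2AX-/- and 0.440 to 0.956 for 53BP1-/-, and at the substrate from -4.19 to 7.42 for H2AX-/- and -0.585 to 7.44 for 53BP1-/-, with the H2AX-/- ends and the 53BP1-/- substrate ends set by the same lines. At the substrate 53BP1-/- was also a call without Lig4-/- line A (5.11), and H2AX-/- differed by -0.0672 without Lig4-/- line B. The number of distinct members differed by -24.5 for H2AX-/- at the substrate, and by 8 when only structures of at least 0.005% of reads counted. Without 1 line it differed at Jk1 by 2 to 42 for H2AX-/- and 34 to 36 for 53BP1-/-, and at the substrate by -51 (without line 5) to 2 (without line 8) for H2AX-/- and -24 (without line B) to 16 (without line C) for 53BP1-/-. Without Lig4-/- line B these substrate numbers differed by -42.5 for H2AX-/- and -22 for 53BP1-/-, both calls.

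The mean overhang, in nt, differed with structures counted once by 0.914 for H2AX-/- and 1.87 for 53BP1-/- at Jk1 and by -0.0362 for H2AX-/- and 0.368 for 53BP1-/- at the substrate, and without the leading member by 0.746 for H2AX-/- and 1.44 for 53BP1-/- at Jk1 and by -0.0518 for H2AX-/- and 0.00767 for 53BP1-/- at the substrate. Without 1 line it ran from -0.109 to 0.274 for H2AX-/- and 0.897 to 1.28 for 53BP1-/- at Jk1, and from 0.718 to 1.78 for H2AX-/- and 0.579 to 1.27 for 53BP1-/- at the substrate. The median position, counted once, differed by 57 for 53BP1-/- and 21.2 for H2AX-/- at Jk1, both calls where reads gave none, and by 66.8 for H2AX-/- at the substrate, and without 1 line by -27.5 to 32.5 for H2AX-/- and -19 to 41 for 53BP1-/- at Jk1 and by 98 to 132 for H2AX-/- and 89 to 128 for 53BP1-/- at the substrate.

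For the 3' part of 3' and 5' overhangs, structures counted once gave -1.99 for H2AX-/- at Jk1, -7.84 for H2AX-/- at the substrate and a call of -22.97 for 53BP1-/- at the substrate. Without 1 line it ran from -20.3 to 28.5 for H2AX-/- and -25.0 to -20.4 for 53BP1-/- at Jk1, and from -11.1 to 13.9 for H2AX-/- and -39.5 to -9.77 for 53BP1-/- at the substrate. For the part of the class at position 122 or more, structures counted once gave 2.34 for H2AX-/- and a call of 14.5 for 53BP1-/- at Jk1. Without 1 line it ran from -30.2 to 8.51 for H2AX-/- and -14.3 to 24.4 for 53BP1-/- at Jk1, and from 53.1 to 70.5 for H2AX-/- and 84.9 to 88.2 for 53BP1-/- at the substrate. The cause of these changes was not tested, and the settings for polarity and position 122 were added after the data were seen. No paired analysis was possible because each table pools its libraries, so that their numbers pair nothing between lines.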
